A study of Drosophila melanogaster with 4 samples.

Results

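The right arm of chromosome 3 (3R) of *Drosophila melanogaster* was examined for clusters, that is, regions in which histone H3 was enriched over input chromatin. Members were all regions with a value above 0 whose midpoint lay from base 2000001 to base 27905053 of 3R on FlyBase r5, which leaves out the 2 Mb nearest the centromere and keeps 25.9 Mb of mostly euchromatic sequence. By this rule 4312 of the 18082 clusters of ChIP replicate 1 were members, 4367 of the 18625 of ChIP replicate 2, and 4997 of the 23076 of a list deposited for the replicate set (the combined list). The samples were nuclei of wild-type Oregon-R larvae (Oregon-R-modENCODE) at the 3rd instar, a late larval stage. The series holds 2 libraries of chromatin immunoprecipitation followed by sequencing (ChIP-seq) with an antibody against H3 and 2 libraries of input, which is the same kind of sheared chromatin without immunoprecipitation. Whole larvae hold many tissues, so each region is an average over cell types. Nothing in the labels says that the replicates came from separate cultures, so their spread may be technical.

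Histone H3 is one of the core histones around which DNA is wrapped in the nucleosome, and almost all nuclear DNA is packed in this way. ChIP of total H3 is commonly used to follow nucleosome occupancy and as the reference for ChIP of modified H3. Euchromatin is the gene-rich, less condensed part of a chromosome arm, and pericentric heterochromatin is the repeat-rich part next to the centromere.

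The values were the authors' log2 ratio of ChIP to input for each region, a scale inferred from the numbers. Read counts were not part of the lists, so the depth is unknown and differences in number or coverage between lists cannot be told apart from depth. Inputs had no values of their own. Comparisons are therefore given per replicate, as mean ± SD with n = 2, and none of them was tested. At the inner edge of the window the last cluster left out of replicate 1 ran from 1997681 to 2001219 with a log2 value of 0.79. The first cluster kept ran from 2009640 to 2011231 with a log2 value of 0.23. The lowest values kept were 0.055 in replicate 1, 0.0063 in replicate 2 and 0.00030 in the combined list, and the closest values on the other side of 0, of regions labelled as depleted, were -0.017, -0.0041 and -0.0010.

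H3 clusters covered somewhat less of euchromatic 3R than they left uncovered in each replicate. They took up 44.4% of the window in replicate 1 and 48.4% in replicate 2, a mean of 46.4 ± 2.86% (SD, n = 2) or 12.0 ± 0.74 Mb. The combined list covered 62.6%, or 16.2 Mb. Counted by base, 39.6% of the window lay in clusters of both replicates, 4.77% in replicate 1 alone and 8.81% in replicate 2 alone. A further 9.90% lay in the combined list alone, and 36.9% was in no list. Bases covered by a replicate and missing from the combined list came to 0.499% of the window. The density of clusters was 166 per Mb in replicate 1 and 169 per Mb in replicate 2, so the larger coverage of replicate 2 went with wider clusters more than with additional ones.

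Compared with the euchromatic parts of the other large arms, cut in the same way, 3R was densely covered. The joined 2L, 2R, 3L and X had 38.9% covered in replicate 1 and 42.9% in replicate 2, so 3R lay 5.51 ± 0.053 percentage points above them (SD of the difference, n = 2). The excess was 5.48 points in replicate 1 and 5.55 points in replicate 2, and it was 6.25 points in the combined list. With only the clusters not below the median value of their list it was 1.56 points. Among the single arms 2R was higher than 3R in both replicates, with 47.1% and 51.8%. The other 3 arms were lower in both, 3L with 38.2% and 41.2%, 2L with 35.6% and 38.4%, and X with 35.5% and 41.1%.

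The arms differed more in how many clusters they held than in how wide these were. On 3R there were 168 ± 1.5 clusters per Mb (SD, n = 2), close to the 167 ± 1.11 of 2R and above 149 ± 3.54 on 3L, 142 ± 3.23 on 2L and 136 ± 4.74 on X. The median width was 2118 ± 66.1 bp on 3R and 2249.5 ± 105 bp on 2R, against 2047 ± 18.4 bp on 3L, 2012.5 ± 27.6 bp on 2L and 2086.5 ± 72.8 bp on X (SD, n = 2 for each). The width of X lay within the replicate spread of 3R. The median log2 value of 3R, 0.53 ± 0.0032 (SD, n = 2), lay between those of 2R (0.54 ± 0.00049) and 2L (0.52 ± 0.0034), well below the 0.61 ± 0.0060 of X. On 3L it was 0.52 ± 0.0093, and its replicate range overlapped those of 2L and 3R.

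**Figure D1:**
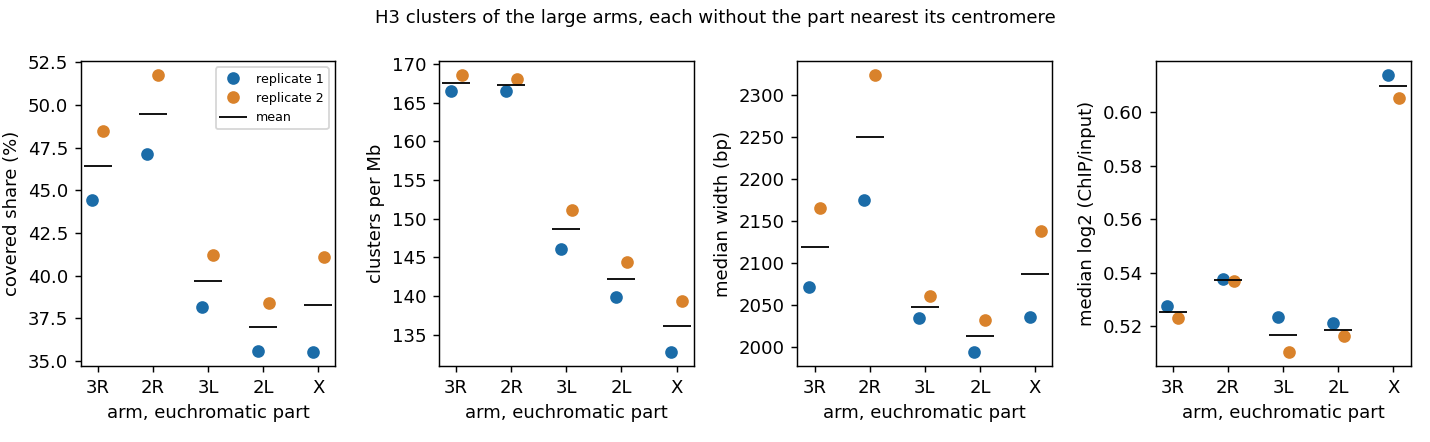
Covered share (%), clusters per Mb, median width (bp) and median log2 ratio of ChIP to input of the clusters of 5 large arms, each without the 2 Mb nearest its centromere. Blue and orange points are replicates 1 and 2, black bars are their means; axes do not start at 0. 3R and 2R stand together in density at 168 and 167 clusters per Mb, above the other arms, and X stands apart in value at 0.61.

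Most clusters were short. The median width was 2071.5 bp in replicate 1 and 2165 bp in replicate 2, and the middle 50% ran from 1608 to 3136 bp and from 1654.5 to 3408.5 bp. The narrowest had 1301 bp in each replicate and 1001 bp in the combined list. The distribution had a long upper tail, with 5% of clusters wider than 5855 bp in replicate 1 and 6365 bp in replicate 2.

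Wide clusters made up more of the coverage than of the number of clusters. Clusters of at least 5 kb and below 10 kb were 7.21% of the clusters of replicate 1 and held 17.5% of its covered bases. In replicate 2 the same class was 9.21% of clusters with 20.8% of the bases. Clusters of 10 kb or more numbered 27 in replicate 1, 55 in replicate 2 and 132 in the combined list. They held 3.06% of the covered bases in replicate 1, 5.63% in replicate 2 and 11.1% in the combined list, where they made up 2.64% of clusters. The outer part of the arm held a larger share of these broad clusters than of the length. Beyond 23 Mb, which is 18.9% of the length of the window, were 11 of the 27 in replicate 1 (40.7%), 21 of the 55 in replicate 2 (38.2%) and 54 of the 132 in the combined list (40.9%). That limit is where the most covered stretch of the arm, described below, begins. The share of all clusters or of covered bases beyond it is not given here.

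Values rose with width across clusters. In replicate 1 the median log2 value was 0.41 for widths below 1.5 kb, 0.44 from 1.5 to 2 kb, 0.57 from 2 to 3 kb, 0.62 from 3 to 5 kb, 0.68 from 5 to 10 kb and 0.73 from 10 kb. In replicate 2 the same classes had 0.37, 0.41, 0.57, 0.64, 0.71 and 0.78. The step from the second to the third of these classes, around 2 kb, was the largest in both replicates. In the combined list the order broke at the narrow end, with 0.28 below 1.5 kb and 0.26 from 1.5 to 2 kb. Spearman's rho of width and value across clusters was 0.678 in replicate 1, 0.711 in replicate 2 and 0.682 in the combined list (4312, 4367 and 4997 clusters). Clusters of a list share a library, and the labels do not say whether a value averages its region or takes its peak, so rho is a description only.

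**Figure D2:**
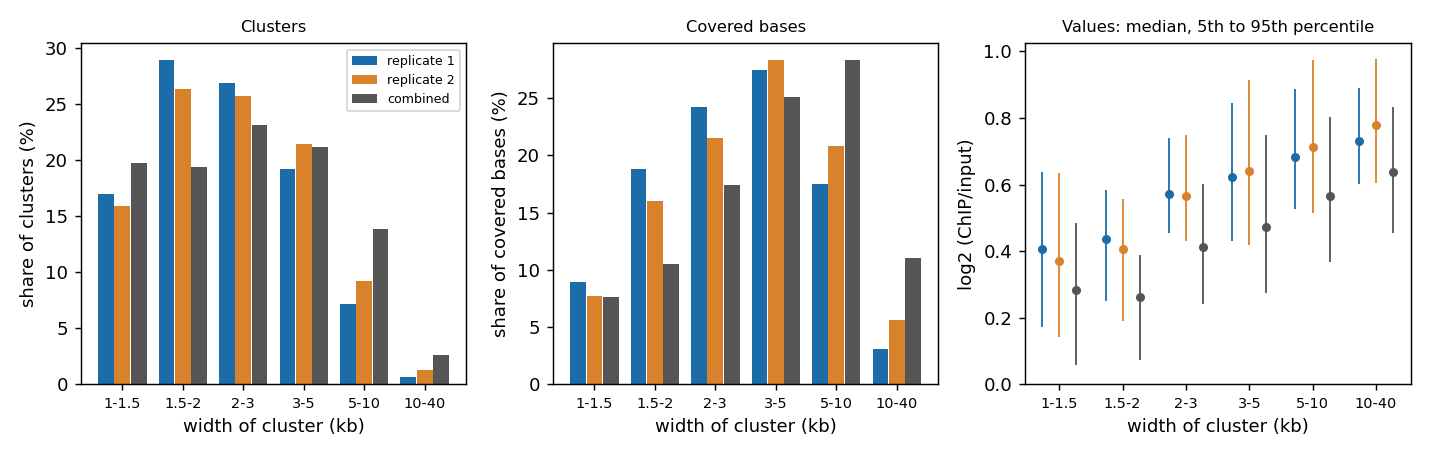
Clusters of euchromatic 3R by width class (kb) in replicate 1 (blue), replicate 2 (orange) and the combined list (grey): share of clusters (%), share of covered bases (%), and log2 ratio of ChIP to input as median (point) with the 5th to 95th percentile over clusters (line). Clusters of 5 to 10 kb are 7.21% of the clusters of replicate 1 and 17.5% of its covered bases, and the medians of replicate 1 go from 0.41 to 0.73.

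The 10 widest clusters of the combined list were 20.0 to 33.0 kb wide with log2 values from 0.63 to 0.77. The widest ran from 20461638 to 20494622. Replicate 1 covered 90.3% of it in 3 clusters and replicate 2 covered 86.3% in 1 cluster, from 20461654 to 20490128 (28.5 kb, log2 value 0.82), and each replicate had its own widest cluster there. The inner edges of these 3 regions lay within 100 bp of each other, at 20461638, 20461727 and 20461654, while their outer edges differed by several kb.

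The other 9 lay at several places along the arm. Of these, a pair lay close together from 7179784 to 7205524 (25.7 kb, log2 value 0.77) and from 7233348 to 7255390 (22.0 kb, 0.72). Replicate 1 covered 84.4% and 94.6% of them, and replicate 2 covered 91.9% and 98.8%. Those ranked 3 and 4 by width lay in the outer part of the arm, from 23126826 to 23151440 (24.6 kb, 0.75) and from 23486352 to 23509690 (23.3 kb, 0.70). In all 10, each replicate covered 82.4% or more. Replicate 1 divided all 10 into several clusters and replicate 2 divided 6 of them.

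Gaps between neighbouring clusters ranged from 0 bases, where clusters abut, to many kb. The median gap was 1752 bp in replicate 1 and 1600.5 bp in replicate 2, a mean of 1676 ± 107 bp (SD, n = 2), and 1013 bp in the combined list. Of the gaps, 20.7% in replicate 1, 22.6% in replicate 2 and 33.1% in the combined list were shorter than 500 bp. At the other end, gaps of 10 kb or more were 7.01% of gaps in replicate 1 (302) and 6.00% in replicate 2 (262). These few gaps held 35.6% and 31.7% of all bases between clusters. The rest of the bases between clusters lay in gaps below 10 kb, and most of those gaps were not shorter than 500 bp. Long gaps occurred at 10.9 ± 1.09 per Mb on 3R, close to 10.0 ± 1.88 on 2R, and at 15.6 ± 1.47 on 3L, 16.1 ± 1.59 on X and 16.7 ± 1.41 on 2L (SD, n = 2 for each).

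**Figure D3:**
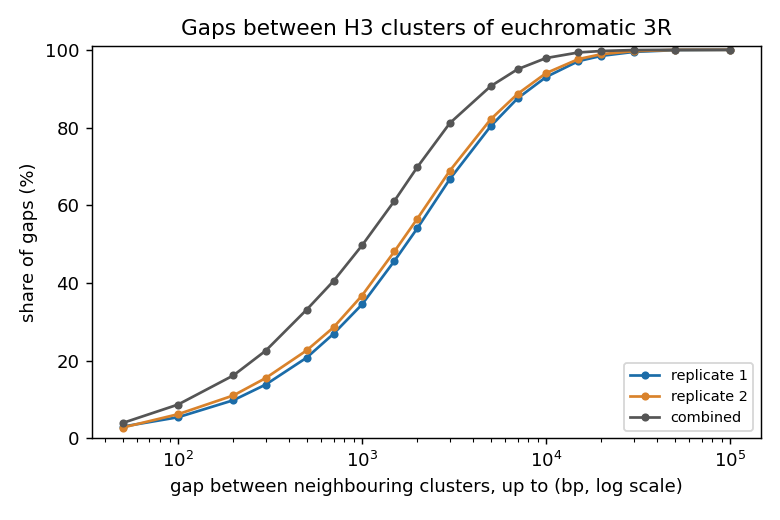
Cumulative share (%) of gaps between neighbouring clusters of euchromatic 3R up to a given length (bp, log scale) in replicate 1 (blue), replicate 2 (orange) and the combined list (grey). The median gaps are 1752, 1600.5 and 1013 bp, and the combined list lies above both replicates over most of the range.

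Close neighbours formed chains. When clusters less than 500 bp apart were counted as one chain, 80.5% of replicate 1 chains and 78.7% of replicate 2 chains were single clusters. The longest chain of the combined list held 16 clusters from 24311242 to 24404376, a span of 93.1 kb of which its clusters covered 96.4%. Replicate 1 covered 85.9% of that span and replicate 2 covered 87.8%, each with 19 clusters. In the replicates themselves chains were shorter. The longest was 28.5 kb in replicate 1, from 20819417 to 20847947, and 33.7 kb in replicate 2, from 7233603 to 7267311. The chain with the most members lay at the same place in both, with 6 clusters from 11169580 to 11193307 in replicate 1 and 8 clusters from 11169507 to 11199036 in replicate 2.

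The longest stretch without a combined cluster ran from 4691689 to 4738793 (47.1 kb). Replicate 1 had no cluster in it and replicate 2 covered 0.0403% of it, at an edge. Both replicates had one of their own longest gaps there, from 4688968 to 4743986 in replicate 1 (55.0 kb) and from 4691708 to 4743998 in replicate 2 (52.3 kb). Next in the combined list came 16068755 to 16100691 (31.9 kb), where replicate 1 covered 4.50% with a single cluster of log2 value 0.060 and replicate 2 nothing. From 8293719 to 8325643 (31.9 kb) no list had any cluster. It was one of 6 among the 10 longest stretches that both replicates left empty. Of these 6, a pair lay near the telomere, from 27816825 to 27839435 (22.6 kb) and from 27841733 to 27863917 (22.2 kb). The sources used here do not say if reads could be placed throughout such stretches.

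The replicates differed in their longest gaps. Replicate 1 had none of its clusters over 89.9 kb from 9815843 to 9905760. Replicate 2 covered 9.04% of the stretch, with 4 clusters wholly inside it, of log2 values up to 0.44, and another that reached in from the outer edge. The combined list covered 23.5%, with 11 clusters wholly inside and values of up to 0.50 among them. The longest gap of replicate 2 anywhere in the window was 52.3 kb. A stretch without clusters in 1 replicate was therefore not always without them in the other.

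Values stayed in a narrow range. The median log2 value was 0.53 in replicate 1 and 0.52 in replicate 2, and the central 90% of clusters ran from 0.27 to 0.78 and from 0.22 to 0.83. Only 6 clusters of replicate 1, 34 of replicate 2 and 6 of the combined list had a value above 1. On the inferred log2 scale this is a ratio of ChIP to input above 2, under a scaling that is not given. The highest value of replicate 1 was 1.08, from 4517266 to 4520898. Replicate 2 had 3.32 in a cluster of 1728 bp from 3533307 to 3535034, far above its next value of 1.15.

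The 4 highest values of the combined list belonged to short clusters that the replicates did not both call. The first, 3.02, was at 23175532 to 23176532, a region of 1001 bp, the smallest width in that list, untouched by the clusters of both replicates. The second, 2.36, ran from 3533328 to 3535174 and was covered over 92.4% by the cluster of replicate 2 with the value 3.32, and not at all by replicate 1. The third, from 9804538 to 9805574 (2.08), and the fourth, from 4435646 to 4436648 (1.57), again had no base in either replicate. These 4 rest on 1 replicate list or on none.

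The following 6 values, from 0.96 to 1.04, were of another kind. They belonged to clusters of 4.0 to 6.7 kb that both replicates covered over at least 82.6% of their length with a single cluster each. The cluster from 26608828 to 26612824 had a log2 value of 1.04, with 1.01 in replicate 1 and 1.14 in replicate 2. The cluster from 23411894 to 23417708 had 1.03, with 0.99 and 1.13. The values of replicate 2 were the higher ones in each of the 6. At the low end, the 5 weakest combined clusters had values from 0.00030 to 0.0036, widths from 1377 to 1767 bp, and were also missed by both replicates.

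Most clusters of euchromatic 3R were found in both replicates. Of the clusters of replicate 1, 3864 of 4312, or 89.6% (95% Wilson interval 88.7 to 90.5%), had 50% or more of their length in clusters of replicate 2, against 88.5% of clusters on all arms. Of the clusters of replicate 2, 3626 of 4367, or 83.0% (81.9 to 84.1%), were covered by replicate 1, against 81.0% on all arms. The euchromatic parts of the other 4 large arms had 89.0% and 81.2%. The shares on 3R were thus near those of the whole lists. The Jaccard index of the replicates, bases in both over bases in either, was 0.745. The intervals cover counting error only and treat clusters as independent, which neighbours are not.

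Wide and strong clusters were shared more often than narrow and weak ones. In replicate 1 the shared portion was 65.3% below 1.5 kb, 88.1% from 1.5 to 2 kb, 97.1% from 2 to 3 kb and 98.9% from 3 to 5 kb. In replicate 2 it was 48.9%, 77.5%, 94.1% and 94.1%. All 27 and 55 clusters of at least 10 kb were shared. The 165 clusters of replicate 1 with a value above 0.8 were shared without exception, as were 290 of 294 in replicate 2. Clusters without a single base in the other replicate numbered 367 in replicate 1 (8.51%, against 9.57% on all arms) and 620 in replicate 2 (14.2%, against 16.2% on all arms). Their median widths were 1456 and 1482 bp and their median log2 values 0.41 and 0.39, against 2168 and 2411 bp and 0.54 and 0.54 for the rest.

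Where a cluster of each replicate overlapped only the other, the edges were close. There were 3004 such pairs, which took in 69.7% of replicate 1 clusters and 68.8% of replicate 2 clusters. Their starts differed by a median of 100 bp and their ends by a median of 96 bp. Both ends lay within 100 bp in 805 pairs, or 26.8%, while 5% of pairs had starts more than 1197 bp apart. The cluster of replicate 2 was the wider one in 61.7% of pairs, by a median of 71 bp over all pairs. Values differed little in the middle, by a median of 0.011 log2 units for replicate 2 minus replicate 1 with an SD of 0.11 over pairs. Pearson's r of the paired values was 0.773 and Spearman's rho 0.740, over 3004 pairs of clusters that share 2 libraries.

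**Figure D4:**
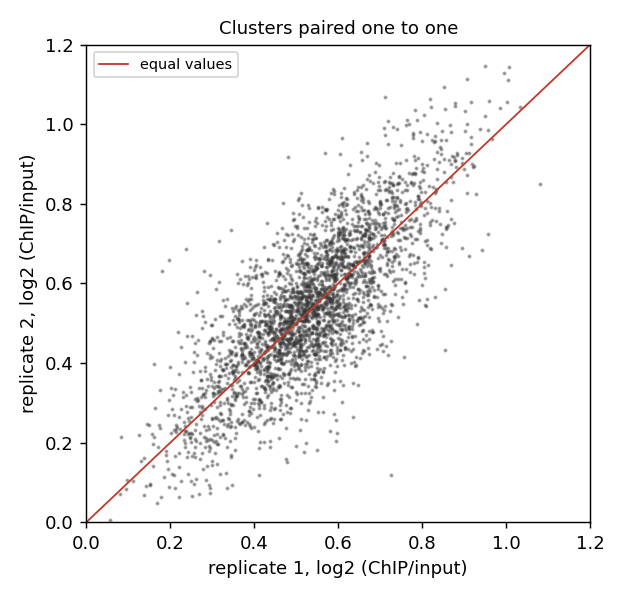
Log2 ratio of ChIP to input in replicate 1 (x) and replicate 2 (y) for 3004 pairs of clusters of euchromatic 3R that overlap only each other. Each point is a pair and the red line marks equal values. Points scatter on both sides of the line with an SD of the difference of 0.11.

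The combined list held most replicate clusters and many weaker ones. Of its 4997 clusters, 3021, or 60.5% (95% Wilson interval 59.1 to 61.8%), had 50% or more of their length in clusters of each replicate, against 55.3% on all arms and 56.6% on the other 4 large arms. Since this list is taken to be made from the same libraries, the overlap is not independent evidence for its clusters. Replicate 1 alone covered 348 (6.96%), replicate 2 alone 616 (12.3%) and neither 1012 (20.3%). Those covered by both were 3191 bp wide in the median with a log2 value of 0.47. Those covered by neither had 1263 bp and 0.29. Those covered by replicate 1 alone had 1761 bp and 0.28, and those covered by replicate 2 alone 1846 bp and 0.29. The median value thus set apart the clusters covered by both, not those covered by neither. The narrowest cluster of each replicate, with 1301 bp, was wider than the median of those covered by neither. A total of 939 had no base in either replicate (18.8%, against 22.8% on all arms).

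A combined cluster sometimes spanned several clusters of a replicate. The midpoints of 2 clusters of replicate 1 fell into 472 combined clusters with a median width of 5936 bp, and those of 3 or more fell into 124 with a median width of 10207 bp. For replicate 2 these numbers were 431 and 72. Up to 6 clusters of replicate 1 and 5 of replicate 2 were found in a single combined cluster.

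Along the arm the covered share went up and down several times and was highest near the outer end. In 51 full windows of 500 kb the mean of both replicates ranged from 29.1% to 64.7% around a median of 44.3%. Replicate 2 exceeded replicate 1 in 48 of the 51. The median SD of the replicates within a window was 2.76 percentage points, against an SD of 9.81 points over windows, so the profile was larger than the spread between replicates. Pearson's r between replicates over the 51 windows was 0.979, and over 259 windows of 100 kb it was 0.959. These are descriptions, as windows share the same libraries.

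The 5 highest windows all lay between 23 and 26 Mb. They were 25 to 25.5 Mb (64.7 ± 4.27%), 23.5 to 24 Mb (64.4 ± 4.40%), 25.5 to 26 Mb (64.2 ± 6.03%), 24.5 to 25 Mb (63.8 ± 2.95%) and 23 to 23.5 Mb (61.4 ± 4.33%, SD, n = 2 for each). The remaining window of this stretch, 24 to 24.5 Mb, had 60.6 ± 3.39% and ranked 9 of 51. Over the whole 3 Mb, clusters covered 60.2% in replicate 1 and 66.2% in replicate 2. The stretch ended sharply, as the next window, 26 to 26.5 Mb, had 36.2% and 43.5%. Away from it, windows above 60% occurred at 7 to 7.5 Mb (60.9 ± 2.75%), 18.5 to 19 Mb (60.7 ± 2.27%) and 27 to 27.5 Mb (60.9 ± 5.09%, SD, n = 2 for each).

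The 5 lowest windows were spread over the arm. They were 10.5 to 11 Mb (29.1 ± 0.040%), 3 to 3.5 Mb (31.7 ± 0.15%), 15 to 15.5 Mb (32.4 ± 0.29%), 21.5 to 22 Mb (33.5 ± 0.76%) and 13 to 13.5 Mb (34.4 ± 1.43%, SD, n = 2 for each). The replicates were closer to each other in these windows than in the highest ones. The widest difference among all windows of 500 kb was at 19 to 19.5 Mb, with 42.7% in replicate 1 and 51.8% in replicate 2.

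High windows had more clusters, wider clusters and higher values than low ones. In replicate 1 the 5 highest windows held 94.2 clusters each, 2359 bp wide in the median and with a median log2 value of 0.57, and the 5 lowest held 68.4 with 1921.5 bp and 0.50. In replicate 2 they held 93.2 with 2655 bp and 0.59, against 69.2 with 1942.5 bp and 0.49. Clusters of at least 5 kb numbered 13.4 and 17.4 per high window in the 2 replicates, and 3.60 per low window in both. The windows were chosen by coverage, on which number and width bear directly, so those 2 differences follow in part from the choice. The values were not used in it, but they rise with width. Over all 51 windows, Spearman's rho of covered share with the median value was 0.671 in replicate 1 and 0.777 in replicate 2.

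The window with the highest median value was 23.5 to 24 Mb, with 0.61 in replicate 1 and 0.64 in replicate 2. It was followed by 24.5 to 25 Mb with 0.57 and 0.62. The lowest was 10.5 to 11 Mb, with 0.47 and 0.46, the same window that had the lowest coverage. The next lowest, 3.5 to 4 Mb, had 0.48 and 0.46.

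**Figure D5:**
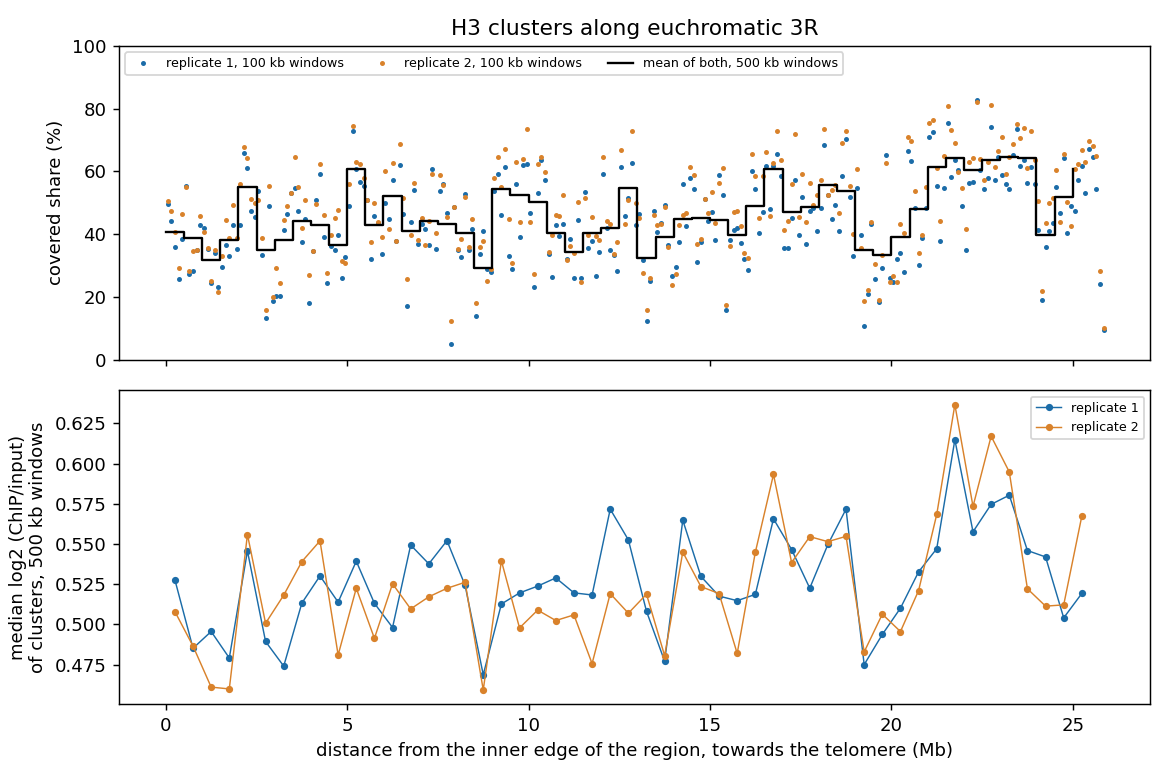
Upper panel, covered share (%) of euchromatic 3R in 100 kb windows (points, replicate 1 blue and replicate 2 orange) and as the mean of both in 500 kb windows (black line). Lower panel, median log2 ratio of ChIP to input of the clusters in 500 kb windows, on an axis that does not start at 0. The x axis is the distance (Mb) from the inner edge of the region, at 2 Mb of the arm. The black line moves between 29.1% and 64.7% and stays above 60% in the 6 windows from 23 to 26 Mb of the arm.

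At the scale of 100 kb the contrast was sharper, from 8.72% to 82.5%. The most covered window, 24.3 to 24.4 Mb, had 82.8% in replicate 1 and 82.3% in replicate 2, and most of it lies in the chain of 16 combined clusters, which begins at 24311242. Next were 23.5 to 23.6 Mb (78.2 ± 3.92%) and 24.7 to 24.8 Mb (77.7 ± 5.08%, SD, n = 2 for each). The least covered was 9.8 to 9.9 Mb, with 4.93% and 12.5%. Replicate 1 had 3 clusters at its inner end, and the longest gap of replicate 1, from 9815843, takes up the rest. The second lowest, 27.8 to 27.9 Mb, at the telomeric end, had 9.75 ± 0.44% (SD, n = 2), and its last cluster ended 10947 bp before the end of the arm in replicate 1 and 11001 bp before it in replicate 2. The third lowest, 15.2 to 15.3 Mb, had 14.1 ± 2.60% (SD, n = 2).

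At 100 kb the likeness of windows fell with distance. Neighbouring windows had a correlation of 0.435, windows 2 apart 0.191, windows 5 apart 0.139 and windows 10 apart 0.0377 (259 windows of the same libraries, a description). For the 51 windows of 500 kb the same distances, counted in windows, gave 0.394, 0.189, 0.0341 and 0.205. The longest run above the median of 45.9% was 20 windows, from 24.1 to 26.1 Mb, with 60.7% covered in replicate 1 and 66.7% in replicate 2. The longest run below it was 12 windows, from 2.6 to 3.8 Mb, with 32.7% and 34.9%. Of 9 windows with at least 70%, 6 lay beyond 23 Mb. Of 17 under 25%, 2 did. Beyond 23 Mb there are 49 of the 259 windows. That limit is where the most covered 500 kb windows begin, so these counts follow in part from its choice.

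The rise towards the telomere came mainly from the outermost part of the arm. Divided at its middle base, the window had 43.2 ± 2.58% covered on the centromeric side and 49.7 ± 3.14% on the telomeric side, a difference of 6.46 ± 0.55 points (SD, n = 2), with 6.07 in replicate 1 and 6.85 in replicate 2. Median log2 values were 0.51 and 0.54, higher on the telomeric side by 0.024 ± 0.0082 (SD, n = 2), or by 0.015 with only the clusters not below the median value of their list. In 5 equal segments of 5.18 Mb the covered share went from 40.8 ± 2.68% through 45.6 ± 2.23%, 42.2 ± 1.98% and 46.9 ± 3.48% to 56.6 ± 3.93% (SD, n = 2 for each). The outermost segment also had the shortest median gap (1252 ± 55.2 bp against 1612 to 1980.5 bp in the other 4) and the highest median value (0.55 and 0.56 in the replicates). Gaps of 10 kb or more numbered 36 and 30 there, against 53 to 80 in each other segment. Without this segment the difference between the telomeric and the centromeric side was 1.81 points. The excess of 3R over the other arms was 4.61 points with the outermost segment of every arm left out, and 2.97 points with that of 3R alone left out.

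The other large arms had dense outer segments as well. The outermost of 5 equal segments was above the mean of the other 4 by 12.8 ± 1.34 points on 3R, 9.37 ± 0.81 on 2R, 9.19 ± 1.08 on 3L, 8.77 ± 1.62 on 2L and 5.39 ± 1.00 on X (SD, n = 2 for each). It was the most covered of the 5 on 3R, 2R and 3L, and the second on 2L and X. The rise was larger on 3R than on each other arm within each replicate, with 11.8 points in replicate 1, where 2R had 8.80, and 13.7 in replicate 2, where 3L had 9.95. With 2 replicates this order was not tested. The coverage of the outermost segment itself was close on 3R (56.6 ± 3.93%) and 2R (56.9 ± 3.91%). It was 47.0 ± 3.00% on 3L, 44.0 ± 3.28% on 2L and 42.6 ± 4.75% on X. The other 4 segments had 43.9 ± 2.59% on 3R and 47.6 ± 3.10% on 2R (SD, n = 2 for each).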

How the data were processed

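Regions of significant enrichment or depletion were deposited by the authors for each of 2 H3 ChIP replicates and for the replicate set. Per the file headers the coordinates follow FlyBase r5, and Bowtie 0.12.7 is named in the submitters' processing notes. The sources used here do not give the region caller, the scaling of ChIP to input or the making of the combined list. The deposited log2 values have no stated unit. Raised to base 2, differences among the 40 highest values were fractions with denominators up to 100 (tolerance 1e-08) for 55 of 55 pairs in the combined list, 449 of 496 in replicate 1 and 343 of 406 in replicate 2. These were only part of the pairs that 40 values can form, and fewest in the combined list. Depth is unknown.

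Coverage, widths, gaps, overlaps and values were computed in Python 3.11.15 (numpy 2.4.6, matplotlib 3.10.9, pandas 2.3.3 and scipy 1.17.1). A cluster was shared when 50% or more of its bases lay in clusters of the other list. The interval functions were tested on simulated regions. Named were the 10 widest, 10 highest and 5 lowest clusters and 10 longest gaps of the combined list, the 5 highest and 5 lowest windows of 500 kb, the 3 highest and 3 lowest of 100 kb, and the longest runs of windows. Replicate values at those places, chains, and values singled out in a replicate were chosen after they were seen. Members and measures were chosen with earlier results of these data known. Without values for inputs, no test over samples was made. No genome or annotation on r5 was used, so genes and sequences are not reported.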

Additional observations from a re-analysis of the deposited data

Results flagged for a closer look

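Regions labelled as depleted of H3 relative to input lay outside the comparisons above. In euchromatic 3R the combined list had 64 of them, replicate 2 had 5 and replicate 1 had 1. Their numbers on the other arms are not given here, so these counts do not show if 3R differs. Those of the combined list were short and weak, with a median width of 1504 bp, a median log2 value of -0.028 and a lowest value of -0.17, from 6480198 to 6481732. Enriched clusters of the replicates touched 30 of the 64. A place labelled as depleted in both replicates, spanning 10386191 to 10387789 at a value of -0.017 in replicate 1, and 10386131 to 10387724 at -0.085 in replicate 2, lay inside a cluster that the combined list labels as enriched, from 10386106 to 10388836 with a value of 0.064. The combined list and the replicates thus gave this place opposite signs at values close to 0.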

How the results depend on the processing

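No paired analysis was possible because the inputs have no values in the files used here. Leaving out 1 of 2 replicates moves their mean by less than their SD by construction, so such values say nothing of stability and are not counted here. Of 38 other recomputed values with an SD of replicates, 12 moved by less than it and 26 by more. Of 3 numbers of clusters, 2 stayed within 1.5 times. The 3 shares of combined clusters were set against a Wilson interval and lay outside it, and the 2 values of the Jaccard index had no spread to be set against. No difference changed sign. Leaving out outermost segments was chosen after the data had been seen. With only the stronger clusters of each list, those not below its median value, the replicates had a mean of 1973 clusters (from 4339.5), 28.3% coverage, a median width of 3090.5 bp, a median gap of 4940 bp, a median log2 value of 0.65, 72.0% shared clusters (from 86.3%) and a Jaccard index of 0.595, the excess of 3R over the other arms was 1.56 points, and the telomeric side was higher by 7.85 points and by 0.015 log2 units. With clusters closer than 500 bp joined, the median width was 2452 bp, the median gap 2396 bp and the Jaccard index 0.749. The combined list gave 62.6% coverage, a median width of 2389 bp, a median gap of 1013 bp, a median log2 value of 0.39, an excess over the other arms of 6.25 points and a telomeric excess of 5.53 points. Clusters of at least 2000 bp had a median log2 value of 0.61. An overlap of 80% left 76.3% of replicate clusters shared and 36.4% of combined clusters covered by both, an overlap of 1 bp gave 65.1%, and leaving out combined clusters narrower than any replicate cluster gave 68.8%. With 1 replicate left out this share was 67.4 to 72.8%, since covering by the remaining one then suffices. The excess of 3R was 6.39 points from 1 Mb, 6.96 from 4 Mb, 4.66 against autosomal arms, 4.61 without the outermost segment of every arm and 2.97 without that of 3R alone, the other arms keeping theirs, which also left a telomeric excess of 1.81 points. The range over windows, 35.5 points, was 30.1 at 1 Mb and 46.8 at 250 kb. A value limit leaves fewer clusters by construction. Why the other values changed, under this limit or the other settings, was not tested.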
